A study of Mus musculus with 16 samples.

Results

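The genes described here were 30 genes of cholesterol and fatty acid synthesis, selected by symbol from the 24421 genes counted in 16 libraries of CD11b+ cells sorted from tumours. By role they were the mevalonate enzymes Acat2, Hmgcs1, Mvk, Pmvk, Mvd, Idi1 and Fdps, and the squalene and sterol enzymes Fdft1, Sqle, Lss, Cyp51, Tm7sf2, Msmo1, Nsdhl, Hsd17b7, Ebp, Sc5d and Dhcr7. The others were the regulators Srebf1, Srebf2, Scap, Insig1 and Insig2, the fatty acid enzymes Acly, Acaca, Fasn, Elovl6, Scd1 and Scd2, and the sterol carrier Stard4. As background, cells make cholesterol from cytosolic acetyl-CoA through mevalonate, squalene and lanosterol, and make fatty acids from the same acetyl-CoA through malonyl-CoA. Transcription of most of these enzymes is driven by the SREBP proteins, which Scap escorts from the endoplasmic reticulum for activation when sterols are low and which the Insig proteins hold back when sterols are high. Macrophages that ingest dying cells and lipoproteins receive cholesterol from outside and are known to export it under control of LXR receptors.

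The study followed how long myeloid cells had stayed in a tumour. C57BL/6 Kaede transgenic mice, in which host cells carry a green fluorescent protein that violet light turns red, bore subcutaneous MC38-Ova tumours, a mouse colon carcinoma line with ovalbumin. Tumours were illuminated and harvested 24h or 72h later, so that Kaede-red cells had been in the tumour at illumination and Kaede-green cells had entered later. Live cells positive for CD45, Kaede and CD11b and negative for TER119 and NK1.1 were sorted, and RNA libraries were made with the SMARTer stranded total RNA kit for low input. The 4 groups were Kaede-green 24h, Kaede-red 24h, Kaede-green 72h and Kaede-red 72h, with 4 libraries each; every library carried the treatment label Control (NA) and the same batch label, Jan_2021. The CD11b gate takes several myeloid cell types together, and the Kaede-red group at each time is a mixture of cells that entered at any point before illumination. Values of a group are given in the order of replicates 1 to 4.

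Total counts per library were 5638480, 4590085, 10823666 and 7091787 in Kaede-green 24h cells and 5522517, 8136470, 6436094 and 3650937 in Kaede-green 72h cells. In Kaede-red cells they were 4219960, 3216858, 4481026 and 13009918 at 24h and 11937125, 15423085, 4121410 and 12383444 at 72h. The ribosomal RNA gene Rn45s took 91.0, 86.5, 91.6 and 93.4% of the counts in Kaede-green 24h libraries and 88.2, 91.0, 87.9 and 79.0% in Kaede-green 72h libraries. Its share in Kaede-red libraries was 66.2, 68.2, 83.1 and 84.9% at 24h and 70.3, 66.2, 73.8 and 55.8% at 72h. Outside Rn45s, between 468092 and 912689 counts were left in the Kaede-green libraries and between 758192 and 5472477 in the Kaede-red libraries. The 30 genes together received 219 to 801 counts per Kaede-green library and 829 to 6306 per Kaede-red library, so that Kaede-green levels were the less precise ones. Levels are given as CPM, the count relative to the library size after TMM scaling, and on that scale 1 count was worth 0.243 to 0.558 CPM in Kaede-green libraries and 0.0211 to 0.181 CPM in Kaede-red libraries. A count of 0 has a limit of 3 counts, which covers counting error only and amounts to 0.730 to 1.67 CPM in Kaede-green and 0.0632 to 0.544 CPM in Kaede-red libraries, and every 0 below is to be read with it. Kaede-green 24h replicate 4 stood apart from the rest, with the lowest mean correlation with its group (0.752 over the genes tested) and the highest Rn45s share, and without it the number of the 29 tested genes called by edgeR was 7 over both times combined, 3 for 24h and 6 for 72h (beside 19.9%, 7.77% and 19.4% of all genes).

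The 10 markers of monocytes and macrophages had counts in every library. All 10 were tested, their summed level was 2142, 2519, 1966 and 1085 CPM in Kaede-green 24h cells and 1327, 1232, 999 and 811 CPM in Kaede-red 24h cells, and Lyz2 was the most abundant. The 72h sums were 1526, 1412, 1309 and 1762 CPM for Kaede-green libraries and 1427, 1726, 1717 and 1352 CPM for Kaede-red libraries. Neutrophil markers summed to a mean of 8.47, 9.61, 10.4 and 18.2 CPM in Kaede-green 24h, Kaede-red 24h, Kaede-green 72h and Kaede-red 72h cells, most of it Csf3r, with Ngp at 0 in all 16 libraries and Ly6g not analysed here. Adipocyte, keratinocyte, tumour epithelial and B cell markers were at 0 in some libraries and summed to at most 1.22 CPM (Kaede-green 72h replicate 3), 1.04 CPM (Kaede-green 72h replicate 4), 2.86 CPM (Kaede-green 24h replicate 4) and 2.45 CPM (Kaede-green 24h replicate 4). T and NK cell markers summed to at most 5.73 CPM (Kaede-green 24h replicate 4) and dendritic cell markers to at most 5.09 CPM (Kaede-red 24h replicate 1). Erythroid markers varied within groups, at 3.35, 8.19, 6.63 and 8.997 CPM in Kaede-green 24h, 1.84, 2.19, 11.1 and 9.69 CPM in Kaede-red 24h, 1.46, 1.83, 0 and 2.08 CPM in Kaede-green 72h and 0.0391, 1.08, 10.4 and 0.0632 CPM in Kaede-red 72h cells, so that replicate 3 alone was high in the last group. Endothelial markers, most of them Kdr, summed to a mean of 13.6, 21.0, 14.1 and 31.0 CPM in the order of groups given for neutrophil markers. Over both times 6 of the 10 monocyte and macrophage markers were higher and 1 lower in Kaede-red cells, beside 10% and 10.3% of all genes. Of the 3 endothelial markers, 2 were higher and 1 lower, beside the same shares. Under library size alone 10 and 2 of these markers were higher and 0 lower, where 96.6% of all genes were called higher.

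Fibroblast markers differed between the colours. Their 6 genes, led by Col3a1, summed to 46.8, 41.0, 40.3 and 52.8 CPM in Kaede-green 24h cells and 46.4, 43.0, 46.9 and 48.9 CPM in Kaede-green 72h cells. The sums in Kaede-red cells were 19.1, 19.1, 35.4 and 35.9 CPM at 24h and 15.1, 18.3, 18.1 and 11.3 CPM at 72h. Of the 3 fibroblast markers tested, 3 were lower in Kaede-red cells over both times and 3 at 72h, and 0 at 24h (beside 10.3%, 8.76% and 4.28% of all genes). Under library size alone 2, 0 and 3 of them were called higher in these comparisons and none lower. That scaling called 96.6% of all genes higher over both times. Dividing cell markers, led by Top2a, summed to 32.9, 30.3, 48.7 and 51.5 CPM in Kaede-green 24h, 24.6, 28.1, 56.6 and 52.4 CPM in Kaede-red 24h, 34.7, 52.8, 35.3 and 43.4 CPM in Kaede-green 72h and 22.0, 20.1, 24.0 and 27.8 CPM in Kaede-red 72h cells. Kaede-red 24h replicates 3 and 4 thus held more dividing, fibroblast and erythroid marker RNA, less monocyte and macrophage marker RNA and a higher Rn45s share than replicates 1 and 2 of that group. The part of these markers and of the Rn45s share in the differences described below was not tested for single genes beyond the covariate fit and the fits without libraries given below. In bulk RNA, fewer cells that express a gene and less of its RNA per cell cannot be told apart.

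Summed over their 18 genes, the enzymes of cholesterol synthesis stood at a mean of 79.1 ± 17.4 CPM (SD, n = 4) in Kaede-green 24h cells and 53.4 ± 10.1 CPM in Kaede-red 24h cells, an order that turns with library size alone (30.8 and 96.5 CPM). The 72h sums were 83.5 ± 5.26 CPM for Kaede-green libraries and 56.0 ± 5.96 CPM for Kaede-red libraries (54.5 and 138 CPM with library size alone). The 6 fatty acid genes summed to 46.2 ± 8.13 CPM in Kaede-green 24h, 48.1 ± 11.5 CPM in Kaede-red 24h, 55.8 ± 6.52 CPM in Kaede-green 72h and 43.5 ± 3.47 CPM in Kaede-red 72h cells, and to 18.1, 85.3, 36.9 and 112 CPM with library size alone. Per kilobase of exon, Idi1 had the highest level in both Kaede-green groups (5.60 and 5.33 CPM per kilobase at 24h and 72h) and Acly in both Kaede-red groups (2.97 and 3.77 CPM per kilobase). Insig1, Scd2 and Ebp were among the 6 highest in every group on that scale, and Tm7sf2 was the lowest in each group.

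**Figure D1:**
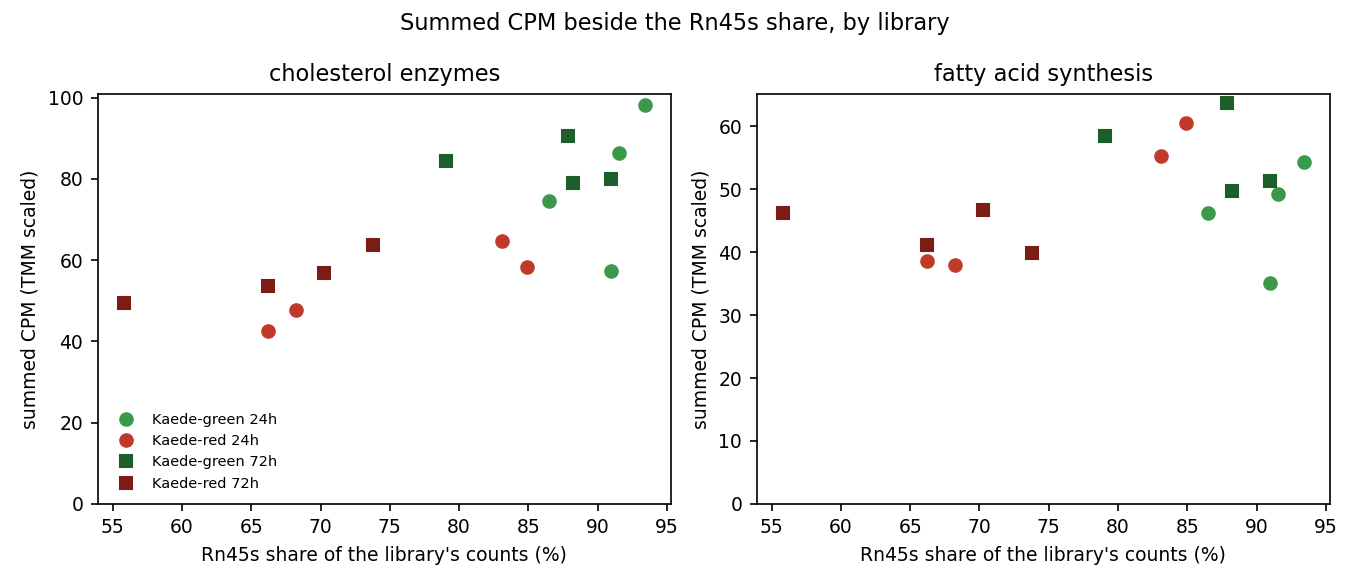
Summed CPM after TMM scaling of the 18 cholesterol enzymes (left) and the 6 fatty acid genes (right) in each of the 16 libraries, plotted against the percent of the library's counts that fell on Rn45s; circles are 24h and squares 72h libraries, in green and red by Kaede colour. The cholesterol enzyme sums lay between 42.6 and 64.8 CPM in Kaede-red 24h libraries, and 1 Kaede-green 24h library (57.4 CPM) fell in that range; with library size alone the Kaede-red means were the higher ones at both times.

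Kaede-red was compared with Kaede-green over both times to ask how the genes differed between cells that had stayed in the tumour and cells that had entered more recently. Of the 29 genes tested, 8 were called at an adjusted p under 0.05, where 20.3% of all 9642 genes tested were called. Lower in Kaede-red cells were 6 of them, Hmgcs1, Idi1, Msmo1, Insig1, Elovl6 and Scd2, beside 10.3% of all genes, and all 6 were higher with library size alone. Higher were 2, Nsdhl and Acly, beside 10% of all genes. The log2 fold change was negative for 23 of the 29 genes, with a median of -0.39 beside 0.058 over all genes tested. By role, 2 of 7 mevalonate enzymes were lower, 1 of 10 tested squalene and sterol enzymes was lower and 1 higher, 1 of 5 regulators was lower, and 2 of 6 fatty acid genes were lower and 1 higher.

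These counts carry limits. Tm7sf2 was not tested (33 counts in all libraries, at most 8 in any), and 12 tested genes reached the filter's minimum in fewer than 4 Kaede-green libraries, namely Acat2, Mvk, Mvd, Fdft1, Lss, Nsdhl, Hsd17b7, Dhcr7, Scap, Insig2, Elovl6 and Stard4, so that the counts and medians above describe the genes that passed and support nothing further. With the Rn45s share as a covariate, edgeR called 0 of the 29 genes in each of the 3 red-green comparisons, beside 1.62% of all genes (156) over both times. In that fit the log2 fold change of Idi1 was -0.72 (adjusted p = 0.415), that of Hmgcs1 -0.41 (0.741), that of Msmo1 -0.54 (0.644), that of Insig1 -0.50 (0.598), that of Nsdhl 1.62 (0.419), that of Acly 0.55 (0.518), that of Scd2 -0.28 (0.839) and that of Elovl6 -0.094 (0.982), and 6 of the 23 negative genes, none of them called, turned positive (Mvd, Sqle, Lss, Dhcr7, Scd1 and Stard4). Scaling by library size alone moved the median of all genes to 2.20 over both times combined (2.33 for 24h, 2.04 for 72h) and turned the sign of all 23 negative genes over both times; relative to that median, 1 of 29 (Acat2) had another sign. Under it 99.9, 99.9 and 99.5% of the genes called in these 3 comparisons were higher, beside 49.5, 42.9 and 47.9% with TMM. The number of genes called was 5 without Kaede-red 24h replicate 1 and 5 without Kaede-red 72h replicate 4 (beside 15.9% and 17.5% of all genes). It was 5 to 10 over all 16 fits that left out 1 library, beside 1582 to 2082 of all genes.

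**Figure D2:**
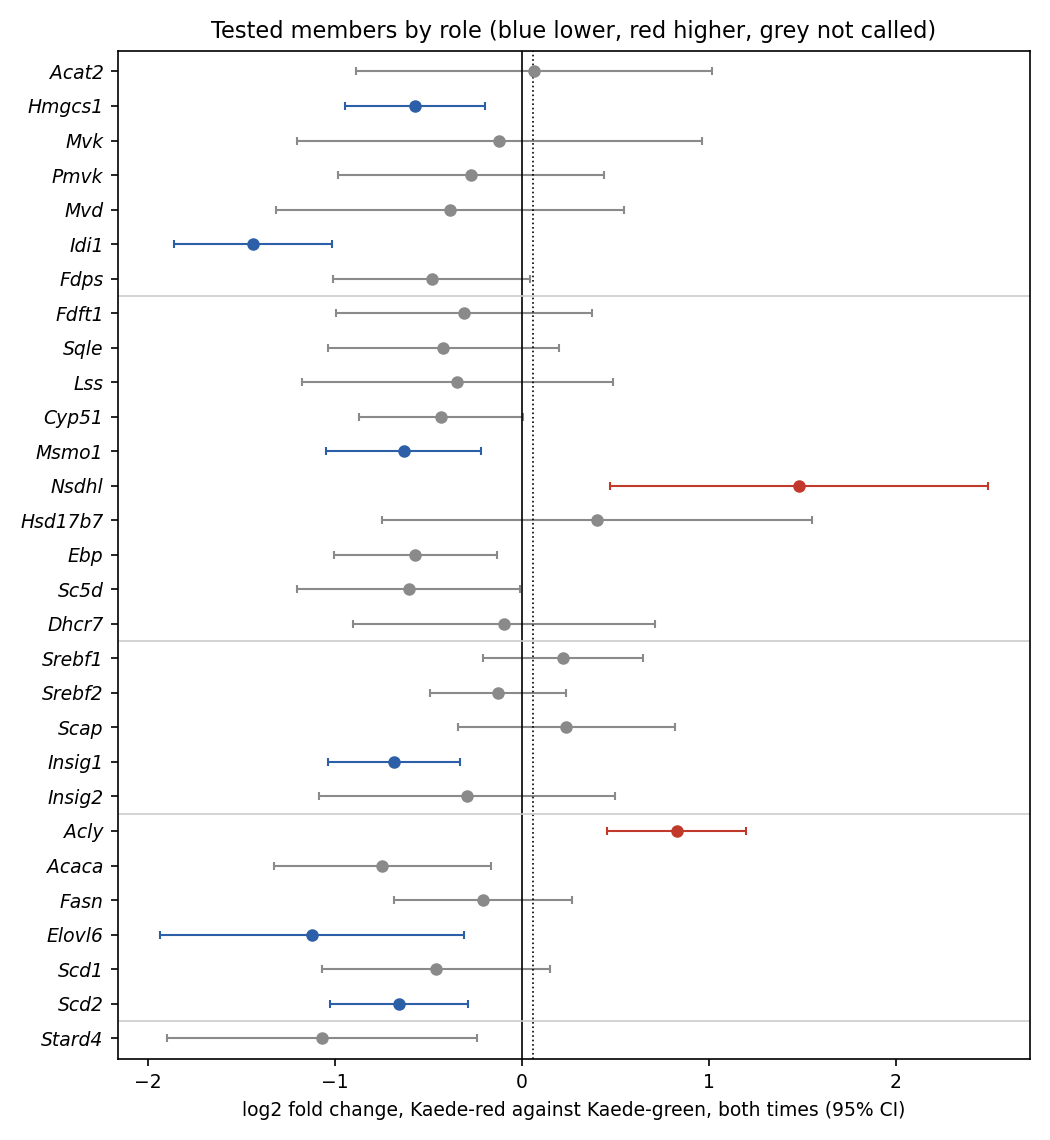
Log2 fold change of Kaede-red relative to Kaede-green cells over both times for the 29 tested genes in order of role, with 95% confidence intervals from edgeR; blue points were called lower, red points called higher and grey points not called, and the dotted line is the median of all genes tested (0.058). Idi1 lies farthest to the left at -1.44 and Nsdhl farthest to the right at 1.48, with an interval of 0.47 to 2.49; with library size alone all 29 values were positive.

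Among the mevalonate enzymes, Idi1 and Hmgcs1 were lower in Kaede-red cells (higher with library size alone). Hmgcs1 (chr13:119690379-119708260) joins acetyl-CoA and acetoacetyl-CoA to HMG-CoA, and Idi1 (chr13:8885501-8892451) isomerises isopentenyl diphosphate, the unit from which sterols are built. Their promoters are shown because both genes were lower in Kaede-red cells over both times. The windows of 300 bases come from RefSeq on GRCm38.p6, 5′ to 3′ on the gene's strand (chr13:119690101-119690400, plus strand, and chr13:8885356-8885655, plus strand), and reach 50 bases past the RefSeq start of transcription, from which all distances here are counted. Gene positions are those of GENCODE, whose Idi1 begins 105 bases before that start and whose Hmgcs1 begins 28 bases after it. Capitals mark matches, on either strand, to the sterol regulatory element core TCACNCCAC, the CCAAT box (CCAAT, or ATTGG on the other strand) and the E-box CACGTG.
Hmgcs1: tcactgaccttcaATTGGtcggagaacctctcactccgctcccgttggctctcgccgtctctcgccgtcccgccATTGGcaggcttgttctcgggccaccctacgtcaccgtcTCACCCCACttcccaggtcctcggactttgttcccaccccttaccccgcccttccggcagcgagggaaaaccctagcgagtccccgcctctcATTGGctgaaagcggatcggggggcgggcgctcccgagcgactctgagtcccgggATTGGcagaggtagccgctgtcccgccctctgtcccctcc
Idi1: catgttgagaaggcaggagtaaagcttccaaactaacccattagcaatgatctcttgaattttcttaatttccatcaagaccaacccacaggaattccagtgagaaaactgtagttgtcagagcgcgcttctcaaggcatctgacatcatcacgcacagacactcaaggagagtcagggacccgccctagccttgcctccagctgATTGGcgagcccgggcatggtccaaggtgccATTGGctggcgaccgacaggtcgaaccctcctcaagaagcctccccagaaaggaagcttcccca
The Hmgcs1 window held 1 sterol regulatory element core, which began 137 bases before the start, and 4 CCAAT boxes, and the Idi1 window held 2 CCAAT boxes, both inside the GENCODE gene. A match describes letters and is not a known site.

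In Kaede-green cells Idi1 stood at 11.2, 11.9, 26.5 and 29.0 CPM at 24h and at 21.2, 17.1, 22.6 and 13.8 CPM at 72h. In Kaede-red cells Idi1 stood at 7.03, 4.14, 8.17 and 6.27 CPM at 24h and at 9.51, 6.10, 11.6 and 5.60 CPM at 72h. All 8 Kaede-red libraries lay below the mean of the Kaede-green libraries and 7 of 8 below the lowest of them; the exception was Kaede-red 72h replicate 3, which lay above Kaede-green 24h replicate 1. At each time alone the 4 Kaede-red libraries lay below all 4 Kaede-green libraries. The log2 fold change of Idi1 over both times was -1.44 (SE 0.21, adjusted p = 3.93e-06) in the quasi-likelihood test of edgeR, adjusted over all genes tested by the Benjamini-Hochberg method, as for all adjusted p here. It was -1.66 (SE 0.30, adjusted p = 0.000450) at 24h and -1.22 (SE 0.29, adjusted p = 0.00261) at 72h, and the difference between the times was 0.43 (SE 0.41, adjusted p = 0.670). Idi1 was called in all 16 fits that left out 1 library, in each of these 3 comparisons, and lost its call with the Rn45s share as a covariate (-1.02 at 24h and -0.42 at 72h).

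In Kaede-green cells Hmgcs1 stood at 7.81, 10.2, 11.5 and 15.9 CPM at 24h and at 6.94, 8.85, 11.2 and 7.28 CPM at 72h. In Kaede-red cells Hmgcs1 stood at 4.66, 7.05, 4.90 and 5.56 CPM at 24h and at 7.28, 7.01, 10.7 and 7.79 CPM at 72h. At 24h every Kaede-red library lay below every Kaede-green library, while at 72h the groups overlapped and Kaede-red replicate 3 was close to the highest Kaede-green library. Hmgcs1 had a log2 fold change of -0.57 (SE 0.18, adjusted p = 0.0246) over both times, with 7 of 8 Kaede-red libraries below the Kaede-green mean. It was -1.05 (SE 0.27, adjusted p = 0.0114) at 24h and -0.10 (SE 0.25, adjusted p = 0.847) at 72h. The difference between the times was 0.95 (SE 0.37, adjusted p = 0.199) and was not called. Over both times the call was lost without any of Kaede-green 24h replicate 4, Kaede-red 24h replicate 1, Kaede-green 72h replicate 3, Kaede-red 72h replicate 1 and Kaede-red 72h replicate 2 (adjusted p up to 0.0668), with no filter, and without the 3 libraries whose Rn45s share lay in the range of the other colour. Those 3, Kaede-green 72h replicate 4 and Kaede-red 24h replicates 3 and 4, were picked after seeing the data, and without them the call at 24h was lost too (adjusted p = 0.0953). At 72h the sign turned without Kaede-green 72h replicate 3 (0.052), with no filter (0.048), with the Rn45s covariate (0.088) and with library size alone (1.90).

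The other mevalonate enzymes were not called. They were Acat2, the thiolase that makes acetoacetyl-CoA; Mvk and Pmvk, which phosphorylate mevalonate; Mvd, which decarboxylates its diphosphate; and Fdps, which makes farnesyl diphosphate. Their log2 fold changes over both times ran from -0.48 for Fdps to 0.062 for Acat2, with mean levels in the 4 groups between 0.537 CPM (Acat2 in Kaede-green 24h cells) and 5.14 CPM (Fdps in Kaede-green 72h cells). Fdps in Kaede-red 72h cells lay below all Kaede-green 72h libraries (2.66 to 4.14 against 4.27 to 7.28 CPM), with a log2 fold change of -0.73 (SE 0.34, adjusted p = 0.143) at 72h. Acat2, chosen after its values were seen, was 1.31 (SE 0.74, adjusted p = 0.321) at 24h and -1.19 (SE 0.58, adjusted p = 0.162) at 72h, and the difference of -2.50 (SE 0.94, adjusted p = 0.181) rested on 0 to 2 counts in each Kaede-green 24h library.

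Among the squalene and sterol enzymes, Msmo1 was lower and Nsdhl higher in Kaede-red cells (both higher with library size alone). Msmo1 (chr8:64718139-64733792) oxidises methyl groups of sterol intermediates, and Nsdhl (chrX:72918557-72958514) carries out the following decarboxylation. The Msmo1 promoter window (chr8:64733529-64733828, minus strand, GRCm38.p6, RefSeq) is shown as that of a called gene further along the pathway; its 3 CCAAT boxes, in capitals, began 160, 96 and 55 bases before the RefSeq start, which lies 214 bases inside the GENCODE gene, so that all 3 are inside that gene.
Msmo1: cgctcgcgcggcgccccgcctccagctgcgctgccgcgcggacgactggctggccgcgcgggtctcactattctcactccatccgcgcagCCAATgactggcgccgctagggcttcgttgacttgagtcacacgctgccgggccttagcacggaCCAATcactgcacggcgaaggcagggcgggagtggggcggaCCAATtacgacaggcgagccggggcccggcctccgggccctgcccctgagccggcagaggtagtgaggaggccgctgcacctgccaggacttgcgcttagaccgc

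In Kaede-green cells Msmo1 stood at 8.92, 12.3, 7.90 and 4.09 CPM at 24h and at 9.14, 6.11, 11.9 and 10.9 CPM at 72h. In Kaede-red cells Msmo1 stood at 5.18, 4.74, 8.17 and 6.14 CPM at 24h and at 5.36, 6.51, 5.29 and 4.80 CPM at 72h. All 8 Kaede-red libraries lay below the Kaede-green mean, but none lay below the lowest Kaede-green library, Kaede-green 24h replicate 4. For Msmo1 the log2 fold change was -0.63 (SE 0.20, adjusted p = 0.0251) over both times combined. At the single times it was -0.46 (SE 0.30, adjusted p = 0.401) for 24h and -0.80 (SE 0.28, adjusted p = 0.0421) for 72h. The difference between the times was -0.34 (SE 0.41, adjusted p = 0.759). For 24h, a fit without replicate 2 of Kaede-green 24h gave -0.22 and a fit without replicate 4 gave -0.70. Over both times the call was lost without any of Kaede-green 24h replicate 2, Kaede-red 24h replicate 1, Kaede-red 24h replicate 2, Kaede-green 72h replicate 3, Kaede-green 72h replicate 4 and Kaede-red 72h replicate 4 (adjusted p up to 0.0774), and with no filter or with a replicate block. At 72h it was lost without any of Kaede-red 24h replicate 1, Kaede-red 24h replicate 2, Kaede-red 24h replicate 3, Kaede-green 72h replicate 1, Kaede-green 72h replicate 3, Kaede-green 72h replicate 4, Kaede-red 72h replicate 1, Kaede-red 72h replicate 2, Kaede-red 72h replicate 3 and Kaede-red 72h replicate 4 (adjusted p up to 0.141), with no filter, with the block, and without the libraries whose Rn45s share lay in the range of the other colour.

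In Kaede-green cells Nsdhl stood at 0, 0.819, 0 and 0.409 CPM at 24h and at 1.097, 1.83, 2.19 and 0.520 CPM at 72h. In Kaede-red cells Nsdhl stood at 1.58, 1.58, 2.36 and 0.969 CPM at 24h and at 2.07, 1.66, 2.57 and 2.23 CPM at 72h. The Kaede-green 24h values rested on 0, 2, 0 and 1 counts, so that 3 counts, the limit for a count of 0, would be 1.67 CPM in replicate 1 and 0.764 CPM in replicate 3. The first of these limits lay above 3 of the 4 Kaede-red 24h values, so that a separation of the colours at 24h is not established, and the 72h groups overlapped. Nsdhl had a log2 fold change of 1.48 (SE 0.50, adjusted p = 0.0314) over both times, with 8 of 8 Kaede-red libraries above the Kaede-green mean. At 24h the summed counts, 59 in Kaede-red and 3 in Kaede-green cells, gave a ratio of 5.14 per scaled library size, with an exact 95% counting interval of 1.67 to 25.6 that leaves out the spread between libraries. The fitted log2 fold changes were 2.40 (SE 0.82, adjusted p = 0.0720) at 24h and 0.56 (SE 0.54, adjusted p = 0.529) at 72h, neither called, and the difference between the times was -1.84 (SE 1.02, adjusted p = 0.394). The call over both times was lost without any of Kaede-green 24h replicate 1, Kaede-green 24h replicate 3, Kaede-red 24h replicate 3, Kaede-green 72h replicate 4 and Kaede-red 72h replicate 4 (adjusted p up to 0.103). It was also lost with a replicate block, with Kaede-red libraries thinned to Kaede-green depth, and without the libraries whose Rn45s share lay in the range of the other colour; at 24h it was called with library size alone and when Kaede-green 24h replicate 2 was left out, but the Kaede-green 24h group then held 1 count, so that no fold is given for that fit.

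The remaining sterol enzymes were Fdft1, which makes squalene, Sqle, which oxidises it, Lss, which closes it to lanosterol, and Cyp51, which takes a methyl group from lanosterol. Hsd17b7 reduces a keto group left by demethylation, and Ebp, Sc5d and Dhcr7 move, add and remove ring double bonds. None of these 8 was called over both times, and their log2 fold changes ran from -0.61 for Sc5d to 0.40 for Hsd17b7. Ebp, chosen after its values were seen, came closest, at -0.57 (SE 0.21, adjusted p = 0.0574 in edgeR) with 8 of 8 Kaede-red libraries below the Kaede-green mean. DESeq2 called Ebp, but the share of all genes called by DESeq2 over both times is not given here, so the call adds no support. Sc5d in Kaede-red 72h cells lay below all Kaede-green 72h libraries (1.76 to 2.27 against 2.86 to 4.02 CPM) at -0.74 (SE 0.39, adjusted p = 0.203). The highest mean among the 8 was that of Cyp51 in Kaede-green 24h and 72h cells (9.68 and 9.84 CPM). Tm7sf2, a sterol reductase, stood at 0 to 0.611 CPM.

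**Figure D3:**
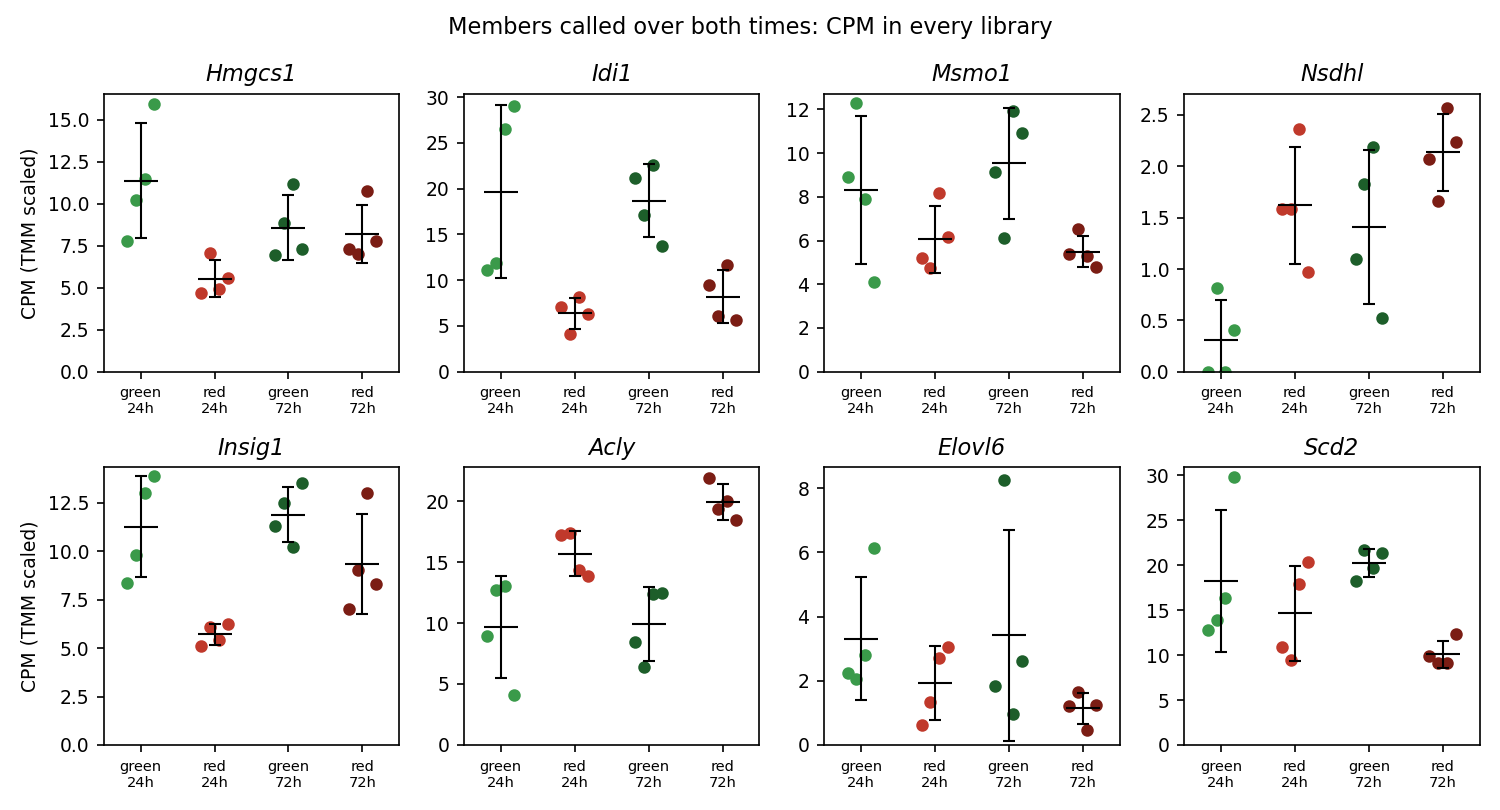
CPM after TMM scaling in each of the 16 libraries for the 8 genes called over both times; each point is a library, the horizontal bar is the mean of the group and the vertical bar is ± 1 SD (n = 4), and every axis starts at 0. Acly in Kaede-red libraries (13.8 to 21.9 CPM) lies above every Kaede-green library (4.09 to 13.0 CPM), and Idi1 lies lower in Kaede-red cells at both times, though not with library size alone.

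Of the 5 regulators, only Insig1 was called over both times, as lower, beside 10.3% of all genes. Under library size alone all 5 were called higher, as were 96.6% of all genes. Insig1 (chr5:28071363-28078662) encodes a protein of the endoplasmic reticulum that retains Scap and is itself known as an SREBP target. Its promoter window (chr5:28071162-28071461, plus strand, GRCm38.p6, RefSeq) is shown as that of the called regulator; the E-box began 101 bases and the CCAAT box 216 bases before the RefSeq start, which lies 49 bases inside the GENCODE gene.
Insig1: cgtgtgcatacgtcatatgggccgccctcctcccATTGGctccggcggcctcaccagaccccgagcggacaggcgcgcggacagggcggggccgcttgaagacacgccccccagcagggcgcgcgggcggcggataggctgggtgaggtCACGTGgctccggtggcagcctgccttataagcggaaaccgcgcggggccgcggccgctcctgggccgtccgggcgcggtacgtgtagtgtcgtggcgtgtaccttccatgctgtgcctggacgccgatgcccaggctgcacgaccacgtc

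In Kaede-green cells Insig1 stood at 8.36, 9.83, 13.0 and 13.9 CPM at 24h and at 11.3, 12.5, 10.2 and 13.5 CPM at 72h. In Kaede-red cells Insig1 stood at 5.09, 6.08, 5.44 and 6.27 CPM at 24h and at 7.01, 9.03, 13.0 and 8.32 CPM at 72h. At 24h the groups did not overlap, and at 72h Kaede-red replicate 3 lay among the Kaede-green libraries while the other 3 lay below them. Insig1 had a log2 fold change of -0.69 (SE 0.17, adjusted p = 0.00411) over both times, with 7 of 8 Kaede-red libraries below the Kaede-green mean. It was -0.99 (SE 0.25, adjusted p = 0.0116) at 24h and -0.38 (SE 0.23, adjusted p = 0.294) at 72h, and the difference between the times was 0.62 (SE 0.34, adjusted p = 0.394). Insig1 was called in all 16 fits that left out 1 library over both times and at 24h. At 24h the call was lost with no filter and without the libraries whose Rn45s share lay in the range of the other colour (adjusted p = 0.0518 and 0.0645).

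Srebf1 and Srebf2 encode the SREBP precursors, of which the product of Srebf2 acts mainly on sterol genes and that of Srebf1 mainly on fatty acid genes. In Kaede-green cells Srebf1 stood at 3.35, 4.92, 8.15 and 5.32 CPM at 24h and at 4.75, 6.11, 4.13 and 11.2 CPM at 72h. In Kaede-red cells Srebf1 stood at 5.62, 5.47, 6.35 and 7.24 CPM at 24h and at 9.04, 7.59, 8.92 and 7.58 CPM at 72h. The Kaede-red values lay within the range of the Kaede-green libraries, whose highest was Kaede-green 72h replicate 4. Srebf1 had a log2 fold change over both times of 0.22 (SE 0.21, adjusted p = 0.507). In Kaede-green cells Srebf2 stood at 10.6, 13.1, 11.5 and 19.2 CPM at 24h and at 15.4, 7.02, 16.8 and 20.8 CPM at 72h. In Kaede-red cells Srebf2 stood at 8.61, 11.7, 12.0 and 11.8 CPM at 24h and at 17.4, 15.5, 13.6 and 15.6 CPM at 72h. The colours overlapped at both times, and Kaede-red 24h replicate 1 was the lowest Kaede-red library. The log2 fold change of Srebf2 was -0.13 (SE 0.18, adjusted p = 0.659), with a 95% interval of -0.49 to 0.23.

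Scap and Insig2 had low counts. In Kaede-green cells Scap stood at 2.79, 1.64, 1.27 and 2.04 CPM at 24h and at 2.92, 2.14, 4.38 and 4.16 CPM at 72h. In Kaede-red cells Scap stood at 2.28, 2.31, 3.63 and 3.88 CPM at 24h and at 3.56, 2.60, 2.27 and 3.07 CPM at 72h. The Scap libraries overlapped, 2 Kaede-red 24h libraries lay above all Kaede-green 24h libraries, and the log2 fold change over both times was 0.24 (SE 0.28, adjusted p = 0.610). In Kaede-green cells Insig2 stood at 1.67, 3.28, 2.04 and 0.409 CPM at 24h and at 4.75, 0.611, 2.19 and 2.08 CPM at 72h. In Kaede-red cells Insig2 stood at 1.84, 1.95, 1.09 and 1.87 CPM at 24h and at 2.54, 1.99, 0.907 and 1.14 CPM at 72h. Insig2, a second retention protein, overlapped in both comparisons, with its lowest value in Kaede-green 24h replicate 4 (1 count) and its highest in Kaede-green 72h replicate 1. Its log2 fold change was -0.29 (SE 0.39, adjusted p = 0.650), with an interval of -1.08 to 0.50.

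Among the 6 fatty acid genes, Acly was called higher and Scd2 and Elovl6 lower in Kaede-red cells over both times. These stood beside 10% higher and 10.3% lower of all genes, and Acaca, Fasn and Scd1 were not called. Under library size alone all 3 called genes were higher, as were 96.6% of all genes. Acly (chr11:100476353-100528000) cleaves citrate to supply cytosolic acetyl-CoA to both pathways. Its promoter window (chr11:100527951-100528250, minus strand, GRCm38.p6, RefSeq) is shown as that of the called gene with the opposite sign; it held no sterol regulatory element core or E-box as spelled above, and 1 CCAAT box (capitals) 37 bases from the start site, inside the transcribed part.
Acly: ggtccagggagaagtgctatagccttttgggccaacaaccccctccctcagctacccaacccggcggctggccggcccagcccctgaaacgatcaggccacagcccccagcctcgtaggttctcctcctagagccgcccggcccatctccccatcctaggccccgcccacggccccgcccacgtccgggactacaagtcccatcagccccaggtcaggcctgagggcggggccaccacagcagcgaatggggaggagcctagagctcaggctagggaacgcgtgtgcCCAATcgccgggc

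In Kaede-green cells Acly stood at 8.92, 12.7, 13.0 and 4.09 CPM at 24h and at 8.41, 6.41, 12.4 and 12.5 CPM at 72h. In Kaede-red cells Acly stood at 17.2, 17.4, 14.3 and 13.8 CPM at 24h and at 21.9, 19.3, 20.0 and 18.4 CPM at 72h. Every Kaede-red library lay above every Kaede-green library, the only such case among the 29 genes over both times, beside 1.19% of all genes tested; none lay below (1.74% of all genes). For Acly the log2 fold change was 0.83 (SE 0.18, adjusted p = 0.00108) over both times combined. At the single times it was 0.67 (SE 0.26, adjusted p = 0.127) for 24h and 0.98 (SE 0.25, adjusted p = 0.00538) for 72h. The difference between the times was 0.32 (SE 0.36, adjusted p = 0.745). Acly was called over both times and at 72h in all 16 fits that left out 1 library, and at 24h with a minimum of 10 counts in every library and with library size alone. Leaving out Kaede-green 24h replicate 4 gave 0.41 for 24h.

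Scd2 and Elovl6 act on finished fatty acids, Scd2 (chr19:44293674-44306864) adding a double bond and Elovl6 (chr3:129532355-129638495) lengthening the chain. In Kaede-green cells Scd2 stood at 12.8, 13.9, 16.3 and 29.9 CPM at 24h and at 18.3, 21.7, 19.7 and 21.3 CPM at 72h. In Kaede-red cells Scd2 stood at 10.9, 9.49, 17.96 and 20.4 CPM at 24h and at 9.86, 9.13, 9.07 and 12.3 CPM at 72h. At 72h all Kaede-red libraries lay below all Kaede-green libraries, and at 24h Kaede-red replicates 3 and 4 lay among the Kaede-green libraries. For Scd2 the log2 fold change was -0.66 (SE 0.18, adjusted p = 0.00855) over both times combined. At the single times it was -0.32 (SE 0.26, adjusted p = 0.536) for 24h and -0.997 (SE 0.25, adjusted p = 0.00496) for 72h, and the difference between the times was -0.68 (SE 0.36, adjusted p = 0.371). The calls over both times and at 72h held in all 16 fits that left out 1 library, while without Kaede-green 24h replicate 4 the 24h value turned to 0.00034. The 24h value was -0.19 without Kaede-red 24h replicate 1, -0.15 without replicate 2 and -0.53 without replicate 4. Scd2 has the paralog Scd1 near it on chromosome 19, and reads of the 2 genes could be exchanged in counting.

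In Kaede-green cells Elovl6 stood at 2.23, 2.05, 2.80 and 6.13 CPM at 24h and at 1.83, 8.24, 0.973 and 2.60 CPM at 72h. In Kaede-red cells Elovl6 stood at 0.615, 1.34, 2.72 and 3.04 CPM at 24h and at 1.21, 1.64, 0.454 and 1.24 CPM at 72h. Kaede-green 72h replicate 2 and Kaede-green 24h replicate 4 were high, and the other Kaede-green libraries overlapped with the Kaede-red ones. All 8 Kaede-red libraries lay below the Kaede-green mean, as did these other Kaede-green libraries. For Elovl6 the log2 fold change was -1.12 (SE 0.40, adjusted p = 0.0437) over both times combined. At the single times it was -0.79 (SE 0.58, adjusted p = 0.481) for 24h and -1.46 (SE 0.55, adjusted p = 0.0639) for 72h, and the difference between the times was -0.68 (SE 0.79, adjusted p = 0.748). The call was lost without any of Kaede-green 24h replicate 4, Kaede-red 24h replicate 1, Kaede-red 24h replicate 2, Kaede-green 72h replicate 2, Kaede-red 72h replicate 1, Kaede-red 72h replicate 3 and Kaede-red 72h replicate 4, and with Kaede-red libraries thinned. Without Kaede-green 72h replicate 2 the value over both times was -0.69 (adjusted p = 0.255) and that at 72h -0.58, and the difference between the times turned to 0.22. That difference was also positive without the libraries whose Rn45s share lay in the range of the other colour (0.20). For 24h, leaving out Kaede-green 24h replicate 4 gave -0.34 and leaving out Kaede-red 24h replicate 1 gave -0.47.

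Acaca makes malonyl-CoA, Fasn builds the chain and Scd1 desaturates it. None of these 3 was called over both times, at -0.75 (SE 0.28, adjusted p = 0.0605) for Acaca, -0.21 for Fasn and -0.46 for Scd1. Acaca and the sterol carrier Stard4, which moves cholesterol between membranes, are given here after their values were seen. Acaca was higher in Kaede-red 24h replicates 3 and 4 (4.54 and 3.75 CPM) than in replicates 1 and 2 (0.878 and 1.82 CPM), and Scd1 likewise (7.08 and 9.37 against 3.86 and 3.28 CPM). Stard4 was -1.07 (SE 0.41, adjusted p = 0.0591), with 8 of 8 Kaede-red libraries below the Kaede-green mean, and its 4 Kaede-red 72h libraries (1.02 to 2.57 CPM) lay below all Kaede-green 72h libraries (2.60 to 5.12 CPM). DESeq2 called Acaca and Stard4, but the share of all genes it called over both times is not given here. These calls of genes picked after seeing their values thus add no support, and with the Rn45s covariate the value of Stard4 turned to 0.077.

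At 24h alone, 3 of 29 genes were called beside 7.50% of all genes, and all 3, Hmgcs1, Idi1 and Insig1, were lower (4.28% of all genes; positive fold changes with library size alone); 0 were higher (3.22%). With edgeR 5 of the 29 had an unadjusted p under 0.05, beside 20.8% of all genes, and DESeq2 called 3, none of them higher, beside 9.74%. Libraries of the colours did not overlap for 3 genes lower in Kaede-red cells (the same 3, beside 5.43% of all genes) and, as counted, for 2 higher (Acly, and Nsdhl with the limit given above, beside 7.09%). The median log2 fold change of the 29 was -0.28 beside 0.053 over all genes, and it was -0.073 for the 6 fatty acid genes. Without the 3 libraries whose Rn45s share lay in the range of the other colour, a setting chosen after seeing the data, 1 gene was called at 24h (Idi1), beside 4.70% of all genes.

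At 72h, 4 of 29 genes were called beside 16.8% of all genes, 3 lower (Idi1, Msmo1 and Scd2, beside 8.76%; positive fold changes with library size alone) and 1 higher (Acly, beside 8.06%). Libraries did not overlap for 5 genes lower in Kaede-red cells (Idi1, Fdps, Sc5d, Scd2 and Stard4, beside 9.52% of all genes) and for 1 higher (Acly, beside 13.0%). The median of the 29 was -0.58 beside 0.035 over all genes, and that of the 6 fatty acid genes was -0.95. With edgeR 12 of the 29 had an unadjusted p under 0.05 at 72h, beside 29.9% of all genes. They included each of the 6 fatty acid genes, 5 of the 17 tested cholesterol enzymes and 0 of the 5 regulators. Of the 6 fatty acid genes, 2 were called. Scd1, chosen after its values were seen, stood at 2.56, 4.27, 10.7 and 4.42 CPM in Kaede-green 72h cells and at 2.82, 2.67, 2.57 and 2.51 CPM in Kaede-red 72h cells. All 4 Kaede-red libraries lay below the Kaede-green mean of 5.49 CPM, but so did every Kaede-green 72h library except replicate 3. The log2 fold change of Scd1 was -1.09 (SE 0.41, adjusted p = 0.0669 in edgeR) at 72h, and -0.54 without Kaede-green 72h replicate 3. A fit of only the groups compared called 8 of 27 genes at 72h, beside 21.3% of all genes in that fit. The comparisons at 24h and at 72h use different libraries, and both enter the comparison over both times.

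**Figure D4:**
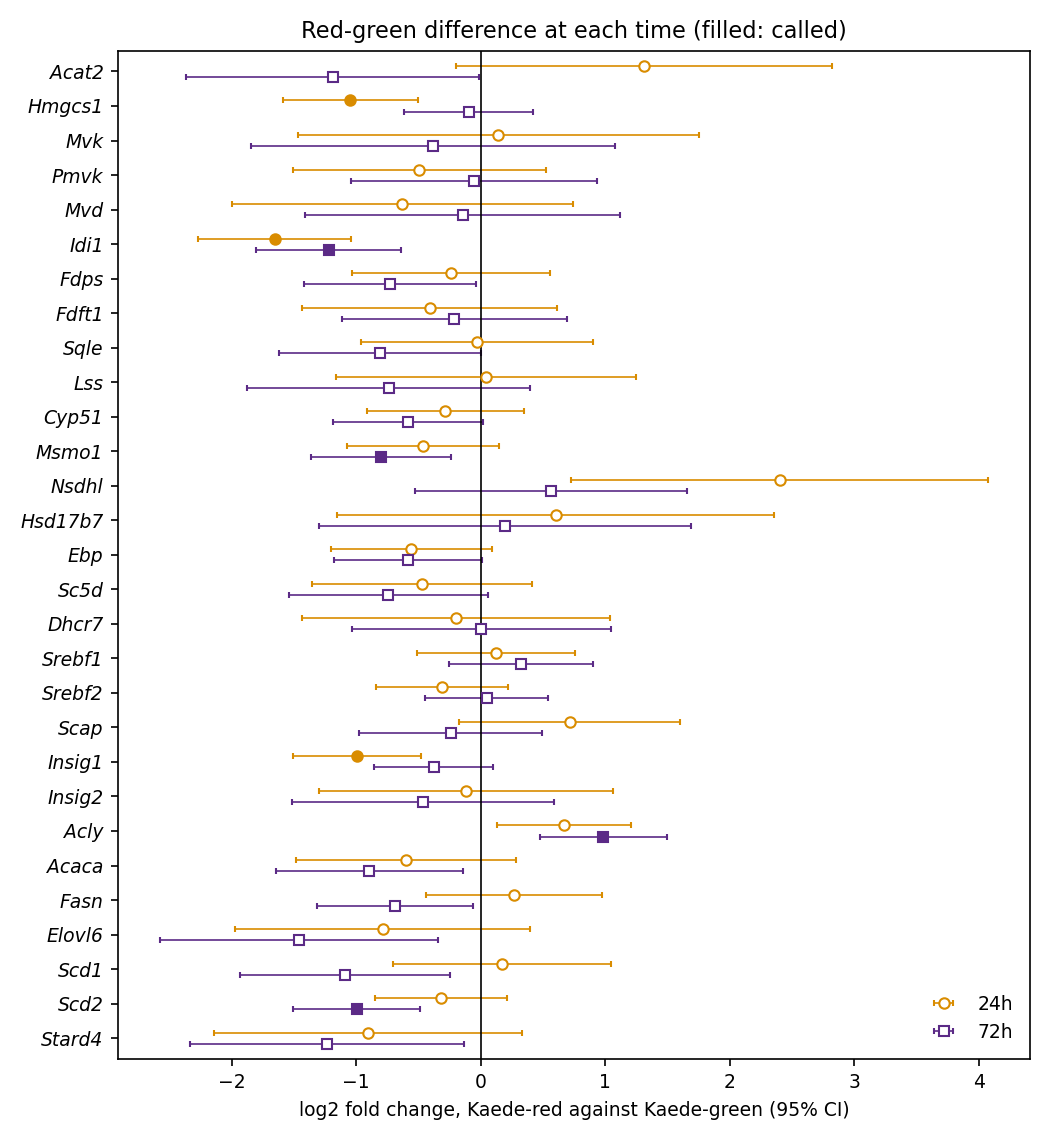
Log2 fold change of Kaede-red against Kaede-green cells at 24h (orange circles) and at 72h (purple squares) for the 29 tested genes, with 95% confidence intervals; filled symbols were called. Hmgcs1 was -1.05 at 24h and -0.10 at 72h, and Scd1 was 0.17 at 24h and -1.09 at 72h; neither difference between the times was called, and with library size alone all values were positive.

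Whether the red-green difference changed from 24h to 72h was tested by the interaction. Of the 29 genes, 0 were called in edgeR, beside 0.757% of all genes (0.425% higher and 0.332% lower); 4 had an unadjusted p under 0.05 (beside 15.3% of all genes), and DESeq2 called 0 (beside 3.01%). The largest positive value was that of Hmgcs1, 0.95, and the largest negative value that of Acat2, -2.50, followed by Nsdhl at -1.84 and Scd1 at -1.26 (SE 0.59, adjusted p = 0.300). The number of all genes called was 73, and 2 to 155 over the 16 fits that left out 1 library, where omitting Kaede-red 24h replicate 3 gave 2, replicate 4 gave 5 and replicate 1 gave 155, and omitting Kaede-green 24h replicate 4 gave 126. Among all genes called, 56.2% were higher with TMM, 45.9% with Rn45s, Lars2 and Mir6236 left out, and 0% with library size alone, where 1 gene was called and the median of all genes was -0.34.

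Within Kaede-green cells, 72h was compared with 24h to ask whether cells that had up to 3 times as long to enter differed. Of the 29 genes, edgeR called 0, as it did of all genes (0%, with 0% higher and 0% lower), while 3 of the 29 had an unadjusted p under 0.05, beside 8.66% of all genes (835). DESeq2 called 0 of the 29 beside 0.124% of all genes (12), and with library size alone 36 of all genes were called, 100% of them higher, with a median of all genes of 0.74. Within Kaede-red cells, edgeR called 0 of the 29 beside 8.68% of all genes (4.92% higher and 3.76% lower), and 5 of the 29 had an unadjusted p under 0.05, beside 23.0%. DESeq2 called 1 of the 29 (Insig1), beside 12.7% of all genes. Scd1 and Insig1, chosen after their values were seen, came closest, Scd1 at -1.16 (SE 0.38, adjusted p = 0.0512) and Insig1 at 0.67 (SE 0.23, adjusted p = 0.0620). With only the Kaede-red groups in the fit, 3 were called (Srebf2, Insig1 and Scd1), beside 15.9% of all genes in that fit. In the fit of all groups, 2 of the 5 dividing cell markers and 1 of the 3 tested fibroblast markers were lower at 72h, beside 3.76% of all genes. Higher at 72h were 2 of the 10 monocyte and macrophage markers and the 1 neutrophil marker tested, beside 4.92%. Among all genes called in this comparison, 56.6% were higher with TMM and 77.8% with library size alone, which gave a median of all genes of 0.42. The number of all genes called within Kaede-red cells ran from 280 to 1108 over the 16 fits that left out 1 library, with 280 without Kaede-red 72h replicate 1, 296 without Kaede-red 24h replicate 3, 328 without Kaede-red 24h replicate 4, 394 without Kaede-red 72h replicate 4 and 537 without Kaede-red 72h replicate 2. These comparisons share their libraries with the red-green comparisons.

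Several of the genes share exon sequence with a neighbour. Exons of Fdft1 overlap those of the cathepsin gene Ctsb over 774 bases, 18.3% of the exon length of Fdft1, and Ctsb had 69749 counts in all libraries beside 593 for Fdft1. Cyp51 overlaps Akap9 (166 bases), Tm7sf2 overlaps Vps51 (532 bases), Lss overlaps 4930483K19Rik (381 bases), Scd2 overlaps Mir5114 (61 bases) and Srebf1 overlaps Mir6922 and Rai1. The strand setting of the counting is not given in the sources used here, so reads in these stretches cannot be assigned to either gene with certainty. The other called genes, Hmgcs1, Idi1, Msmo1, Nsdhl, Insig1, Acly and Elovl6, overlap no counted gene in their exons.

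The 300-base promoter table held 32 windows for 24 of the 30 genes; Fdps, Fdft1, Sqle, Scd1, Scd2 and Stard4 were not among them. The sterol regulatory element core TCACNCCAC, on either strand, was in 1 of the 32 windows (Hmgcs1) and in 1.24% of all 32851 windows of the table. The CCAAT box was in 21 of 32 windows, of 20 genes, and in 37.4% of all windows. The E-box CACGTG was in 6 of 32 windows, of the 5 genes Hsd17b7, Sc5d, Dhcr7, Scap and Insig1, and in 7.15% of all windows. Among the called genes with a window, the CCAAT box was present in Hmgcs1, Idi1, Msmo1 and Insig1, which were lower, and in Nsdhl and Acly, which were higher, while the window of Elovl6 held none of the 3 motifs. Absence of a match says only that these letters are not in this window.

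Other genes of lipid handling were counted from lists of the same kind, also chosen with earlier results of these data known. In these, 26 of the 61 tested genes reached the filter's minimum in fewer than 4 Kaede-green libraries, Ch25h, Cd36, Tmem97 and Acss2 among them. Of the 26, 5 were among the 12 genes of LXR and export and 4 among the 13 of uptake and lysosomal egress. Another 8 were among the 16 of fatty acid oxidation, 8 among the 14 other SREBP-linked genes and 1 among the 6 SREBP processing genes. The counts and medians of these lists, here and in the next paragraph, thus describe the genes that passed and support nothing further. Shares of all genes beside them give a scale and are no test of the lists. Of 12 genes linked to LXR and export, 8 were called higher and 0 lower, beside 10% and 10.3% of all genes, with a median log2 fold change of 0.93. Those with the largest change, named here after their values were seen, were the phospholipid transfer protein Pltp (2.24 (SE 0.23, adjusted p = 1.23e-08)), the cholesterol hydroxylase Ch25h (2.03 (SE 0.44, adjusted p = 0.000936)), the LXR receptor Nr1h3 (1.44 (SE 0.23, adjusted p = 1.55e-05)) and the exporter Abca1 (1.34 (SE 0.18, adjusted p = 8.56e-07)). At 24h 4 of the 12 were higher (beside 3.22% of all genes) and at 72h 7 (beside 8.06%), with 0 lower at either time. With the Rn45s share as a covariate 2 of the 12 were higher over both times, beside 0.529% of all genes. In lipoprotein uptake and lysosomal egress, 5 of 13 genes were higher and 0 lower, again beside 10% and 10.3% of all genes, with a median of 0.37; the largest were the scavenger receptor Cd36 (1.85), the lysosomal lipase Lipa (1.20), the lysosomal cholesterol transporter Npc1 (1.06) and the endocytic receptor Lrp1 (0.75).

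In fatty acid oxidation, 2 of 16 genes were higher, close to the 10% of all genes, and 0 lower, with a median of 0.34; the 2 were the carnitine transferase Cpt1a at 1.01 (SE 0.24, adjusted p = 0.00251) and the trifunctional enzyme subunit Hadha at 0.69 (SE 0.19, adjusted p = 0.00863). Of 6 genes that process or degrade SREBP regulators, 1 was lower (beside 10.3% of all genes), the ubiquitin ligase Rnf139 (all 6 higher with library size alone) at -0.50 (SE 0.16, adjusted p = 0.0230), and 0 were higher, with a median of -0.013. Of 14 other genes of lipid synthesis linked to SREBP, edgeR called 0 over both times, with 3 at an unadjusted p under 0.05 (beside 32.5% of all genes) and a median of 0.11. At a single time 1 of the 14 was called higher at 24h (Tmem97, beside 3.22% of all genes) and 1 lower at 72h (Acss2, which makes acetyl-CoA from acetate, beside 8.76%), and both rested on few counts. Tmem97 had 0, 1, 0 and 0 counts in Kaede-green 24h and 5, 7, 21 and 30 in Kaede-red 24h libraries, so that no fold is given, and Acss2 had 13, 1, 13 and 5 in Kaede-green 72h and 13, 18, 5 and 50 in Kaede-red 72h libraries. With library size alone 12 of 12 export, 13 of 13 uptake, 16 of 16 oxidation, 13 of 14 other SREBP-linked and 28 of the 29 synthesis genes were called higher over both times, beside 96.6% of all genes.

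**Figure D5:**
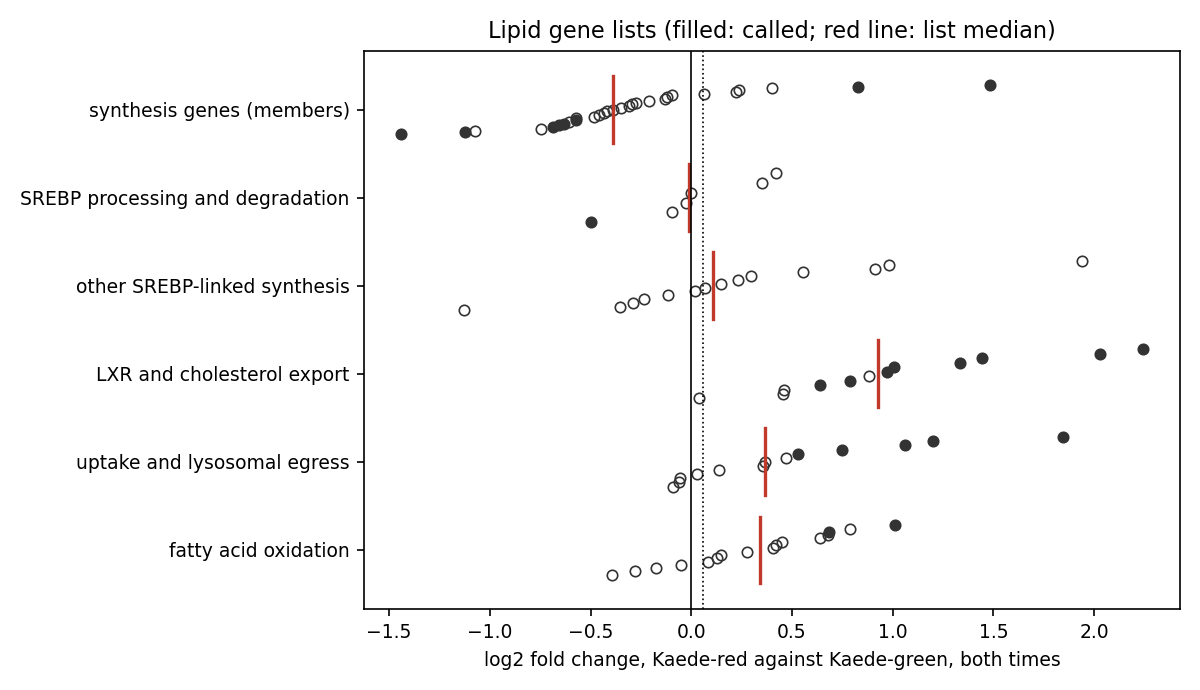
Log2 fold change of Kaede-red relative to Kaede-green cells over both times for each tested gene of 6 lists; filled circles were called, the red line is the median of the list and the dotted line the median of all genes tested. The medians run from -0.39 for the synthesis genes to 0.93 for LXR and cholesterol export, and with library size alone all 6 were positive.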

How the data were processed

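The deposited values are gene counts that the authors made with Trim Galore, FastQC, HISAT2 and featureCounts on the mm10 genome; the strand setting of the counting is not given in the sources used here. R 4.3.3 with edgeR 4.0.16, limma 3.58.1 and DESeq2 1.42.0, and Python 3.11.15 with numpy 2.4.6, pandas 2.3.3 and matplotlib 3.10.9, were used, with gene positions from GENCODE M21. All 16 libraries entered 1 fit with 1 mean per group. Genes were filtered with filterByExpr by group (minimum count 10, which gave a CPM minimum of 1.656), scaled with TMM and tested with the quasi-likelihood test of edgeR, adjusted over the 9642 genes tested by the Benjamini-Hochberg method and a threshold of 0.05. The tests were checked on simulated data. Alternatives were DESeq2's Wald test, RLE factors, library size alone, no filter, at least 10 counts in every library, only the groups compared, a replicate block, Rn45s, Lars2 and Mir6236 left out, the Rn45s share as a covariate, Kaede-red libraries thinned to the median Kaede-green count outside Rn45s, and leaving out each library in turn. An alternative without the 3 libraries whose Rn45s share lay in the range of the other colour was added after the data were seen. Values in every library are given for genes called in at least 1 comparison and for the 5 regulators. The study's supplement describes its plot of these libraries as tumours of different mice, without saying which replicate numbers belong together, and the libraries were not paired. The members and lists were chosen with earlier results of these data known.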

Additional observations from a re-analysis of the deposited data

Results flagged for a closer look

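In 2 of 68 groups of 4 values looked at, 1 library lay far from the other 3, and chance alone does this in about 1 in 20 groups. Srebf2 in Kaede-red 24h replicate 1 stood at 8.61 CPM, while the other 3 libraries of that group stood at 11.7 to 12.0 CPM. Insig2 in Kaede-red 24h replicate 3 stood at 1.09 CPM, while the other 3 stood at 1.84 to 1.95 CPM. The cause was not tested.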

How the results depend on the processing

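Of 320 counts of genes called under an alternative, 255 were within 1.5 times the count reported, and of 1092 log2 fold changes of single genes 952 had the same direction and the same side of the threshold, 62 were no longer called, 46 were newly called and 32 changed sign. For the changes below the cause was not tested.

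With library size alone, 28 of the 29 genes were called over both times (9328 of all genes), 25 at 24h (9054) and 20 at 72h (8134); 36 of all genes were called for Kaede-green time (72h with 24h), 9 for Kaede-red time and 1 for the difference between the times. Log2 fold changes over both times then turned to 1.59 for Hmgcs1, 0.69 for Idi1, 1.40 for Msmo1, 1.43 for Insig1, 1.01 for Elovl6, 1.44 for Scd2, 1.93 for Srebf2, 1.80 for Insig2, 1.64 for Ebp, 1.25 for Acaca and 0.97 for Stard4. At 24h they turned to 1.28 for Hmgcs1, 0.66 for Idi1, 1.31 for Insig1, 1.69 for Msmo1, 1.28 for Elovl6 and 1.85 for Scd2. At 72h they turned to 0.72 for Idi1, 1.11 for Msmo1, 1.03 for Scd2, 1.90 for Hmgcs1, 1.55 for Insig1, 0.74 for Elovl6 and 0.90 for Scd1, and the difference between the times of Acly turned to -0.13.

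With the Rn45s share as a covariate, 0 of the 29 genes were called by edgeR over both times (156 of all genes), 0 at 24h (206) and 0 at 72h (101), and 110 of all genes for Kaede-red time and 34 for the difference between the times. Hmgcs1 at 72h turned to 0.088 with it and to 0.048 with no filter, and Stard4 over both times to 0.077 with the covariate. Without the 3 libraries whose Rn45s share lies in the range of the other colour, a setting chosen after seeing the data, 1 of the 29 genes was called at 24h, 1 of all genes for Kaede-green time, 11 for Kaede-red time and 1 for the difference between the times, and the difference of Elovl6 turned to 0.20.

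For Kaede-red time, 1 of the 29 genes was called with each of DESeq2 (beside 12.7% of all genes), RLE factors and no filter. The main test called 8.68% of all genes there, and shares under RLE factors and no filter are not given here. With at least 10 counts in every library 1 of the 7 genes tested was called. It was 1 of the 25 tested with Rn45s, Lars2 and Mir6236 left out, and 3 of the 29 with only the groups compared (1604 of all genes, 15.9%). Counts given without a share show only how calls moved and support nothing about these genes. Only the groups compared gave 8 genes at 72h, beside 21.3% of all genes in that fit. It gives no separate value over both times or for the difference between the times, whose fits hold all groups already. For Kaede-green time DESeq2 called 12 of all genes and no filter 37. For the difference between the times DESeq2 called 290 of all genes, no filter 216, at least 10 counts in every library 156 and the replicate block 165. With the replicate block, 6 of the 29 genes and 1784 of all genes were called over both times. Residual correlations of Kaede-red and Kaede-green libraries that share a replicate number ran from 0.049 to 0.153 at 24h and from -0.018 to 0.029 at 72h. Between 24h and 72h libraries of the same colour they ran from -0.041 to 0.138. They were not all above 0.1, so the numbers were not treated as pairs. This does not show that Kaede-red and Kaede-green libraries are independent.

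Over the 16 fits that left out 1 library, 5 to 10 of the 29 genes were called over both times, beside 1582 to 2082 of all genes. The range was 3 to 4 at 24h (503 to 765 of all genes) and 3 to 6 at 72h (1146 to 1910). For Kaede-red time it was 0 to 2 (280 to 1108). Without Kaede-red 72h replicate 2 or replicate 4, 28 of the genes were tested. Of all genes, 0 to 2 were called for Kaede-green time, 280 to 1108 for Kaede-red time and 2 to 155 for the difference between the times. Hmgcs1 at 72h ran from -0.21 to 0.052, the difference between the times of Elovl6 from -1.13 to 0.22 and Scd2 at 24h from -0.53 to 0.00034. Depth also limits the precision of the Kaede-green levels, since the 30 genes had 219 to 801 counts in those libraries.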
